A study of Homo sapiens with 12 samples.

Results

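The clustered histone genes encode the linker histone H1 and the core histones H2A, H2B, H3 and H4, and are named in these data by HIST, a cluster number and the histone class. They were taken as the protein-coding rows of the deposited gene table whose name starts with HIST, digits and H, which gave 71 of 58735 rows. A further 19 rows with such names were not protein-coding and were left out. Of the 71 genes, 6 belonged to class H1, 17 to H2A, 18 to H2B, 15 to H3 and 15 to H4. On GRCh38, 55 lay in the HIST1 cluster of chromosome 6, 12 in HIST2 and 3 in HIST3 on chromosome 1, and 1, HIST4H4, on chromosome 12.

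Dividing cells switch these genes on as DNA replication starts, so that new DNA can be wrapped into nucleosomes. Their mRNAs are not spliced and end in a conserved stem-loop in place of a poly(A) tail. Stem-loop binding protein (SLBP) holds that end, and the mRNAs are degraded when replication stops. Some members also give longer, polyadenylated mRNAs, mainly in cells that have left the cycle, and such forms have been described in tumour cells. The standard protocol of the kit named in the labels captures poly(A) RNA on oligo-dT beads, so tail-less histone mRNA enters such libraries poorly.

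BCPAP is an established cell line from a human papillary thyroid cancer. It was transfected with siRNA against NOX4 (siNOX4) or with scrambled siRNA (siControl) and kept at 1% oxygen (hypoxia) or 20% oxygen (normoxia). NOX4 is an oxidase that makes hydrogen peroxide, and the study asks what part it takes when these cells adapt to low oxygen. The 4 groups, siNOX4 in hypoxia, siControl in hypoxia, siNOX4 in normoxia and siControl in normoxia, had 3 libraries each, from separate transfections according to the labels. All groups share the line, the growth medium with serum and a transfection, and no untransfected cells were analysed here. The labels do not say how long the cells stayed at 1% oxygen.

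NOX4 itself was counted 4, 3 and 4 times in the siNOX4 hypoxia libraries, against 17, 8 and 13 times in the siControl hypoxia libraries. In normoxia it was counted 1, 5 and 3 times with siNOX4, against 8, 13 and 6 times with siControl. At either oxygen level the siNOX4 libraries were all lower than the siControl libraries, although neither difference passed the test over all genes (log2 fold change -1.70, SE 0.53, adjusted p = 1.00 in hypoxia, and -1.48, SE 0.57, adjusted p = 0.0826 in normoxia, edgeR quasi-likelihood). Total counts per library ran between 16559386 and 21282835, of which 1012 to 1728 fell on the histone genes. Those sums carry exact 95% binomial intervals of 52.9 to 59.9 CPM of the raw total in the lowest library, counting error only. The thyroid factors PAX8, NKX2-1 and FOXE1 averaged 664, 125 and 48.6 CPM over the 12 libraries, while thyroglobulin (TG) and TSHR, which mark differentiated thyroid cells, averaged 0.0601 and 0.0427 CPM.

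In siControl normoxia, replicates 1 and 3 stood apart from replicate 2. The chi-square per gene between 2 libraries, which is near 1 for sampling noise alone, was 105 and 113 for the pairs that held replicate 2, against 8.33 for replicates 1 and 3 and 2.19 to 13 within the other groups. Set against the siNOX4 normoxia libraries, replicate 2 gave 5.01 to 6.81 and replicates 1 and 3 gave 104 to 123. For the endothelial marker PECAM1, replicates 1 and 3 had 30.5 and 22.2 CPM and replicate 2 had 2.66 CPM, while CDH5 and VWF, which define that cell type more closely, averaged 0.0937 and 0.169 CPM over all libraries. Counts and calls of histone genes that use siControl normoxia are therefore given with and without replicates 1 and 3. Without them that group holds 1 library, which is assumed to vary like the other groups. That library, replicate 2, is the one close to the siNOX4 normoxia libraries, and it had 13 NOX4 counts, the most of the siControl normoxia group. Which of the 3 libraries represents siControl cells in normoxia could not be settled from these files, so values without replicates 1 and 3 carry that doubt.

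The stem-loop is the end of the tail-less histone mRNA, and transcripts that run past it can carry a tail. It is shown for 6 members whose values are described below. Each runs 5′ to 3′ on the RNA's strand as DNA letters, with the pairing arms of 6 bases in capitals around a loop of 4 bases, and was read from GENCODE 29 transcripts (GRCh38).
HIST1H2AC: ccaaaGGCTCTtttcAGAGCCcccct
HIST2H2BE: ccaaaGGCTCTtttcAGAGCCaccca
HIST1H2AG: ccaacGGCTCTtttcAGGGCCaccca
HIST1H3E: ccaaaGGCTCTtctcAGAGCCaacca
HIST1H4H: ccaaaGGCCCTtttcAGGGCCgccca
HIST1H4I: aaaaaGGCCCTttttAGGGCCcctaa
Both H4 genes carry GGCCCT in the first arm and the H2A, H2B and H3 genes shown carry GGCTCT.

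The annotated 3′ ends differed among the members. Of the 71 genes, 36 had annotated bases after the stop codon, 32 of those held a stem-loop, and 23 went on for at least 100 bases beyond it. The transcript of HIST2H2BE continued for 1729 bases past the stem-loop, that of HIST1H3E for 1862 bases and that of HIST1H4H for 1655 bases. A polyadenylation signal, AATAAA or ATTAAA, stood within the last 50 bases of 23 members. The gene models of HIST1H1C, HIST1H1D and HIST1H2BK stop at the coding sequence, so reads from any longer end of these 3 genes would not be counted. For genes without annotated bases after the stop codon, the counts cannot tell which form of the mRNA was sequenced.

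Promoters of 66 members were matched in RefSeq (GRCh38.p14). The bases before the start site are shown for 4 genes, the gene that fell most (HIST2H2BE), a divergent pair whose fold changes had opposite signs (HIST1H2AG and HIST1H2BJ) and the most abundant H1 gene (HIST1H1C), with capitals for motifs on either strand. The motif found in most members was CCAAT, the box for the TATA-binding protein was searched as TATAAA, the octamer of H2B genes as ATTTGCAT, and the H1 element as AAACACA. They lie at chr1:149886683-149886882 (minus strand), chr6:27132843-27133042 (plus strand), chr6:27132796-27132995 (minus strand) and chr6:26056471-26056670 (minus strand), and each runs 5′ to 3′ towards its own gene.
HIST2H2BE: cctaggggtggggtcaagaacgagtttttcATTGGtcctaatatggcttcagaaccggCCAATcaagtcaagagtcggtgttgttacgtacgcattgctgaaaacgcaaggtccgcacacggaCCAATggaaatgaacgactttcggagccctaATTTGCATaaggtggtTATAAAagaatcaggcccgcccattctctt
HIST1H2AG: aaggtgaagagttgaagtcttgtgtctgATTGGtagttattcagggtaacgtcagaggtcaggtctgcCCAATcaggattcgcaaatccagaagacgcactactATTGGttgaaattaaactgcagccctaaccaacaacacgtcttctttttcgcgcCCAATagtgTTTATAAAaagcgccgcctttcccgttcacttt
HIST1H2BJ: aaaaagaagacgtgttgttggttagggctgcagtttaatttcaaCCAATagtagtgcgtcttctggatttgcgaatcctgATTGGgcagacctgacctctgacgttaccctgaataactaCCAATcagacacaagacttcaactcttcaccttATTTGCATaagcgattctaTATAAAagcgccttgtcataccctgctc
HIST1H1C: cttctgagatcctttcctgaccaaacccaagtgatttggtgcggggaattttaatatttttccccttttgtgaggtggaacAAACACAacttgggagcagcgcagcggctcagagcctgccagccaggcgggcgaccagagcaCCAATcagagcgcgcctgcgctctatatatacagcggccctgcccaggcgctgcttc
The sequences of HIST1H2AG and HIST1H2BJ are largely the same interval read from its 2 strands. In the 250 bases before the start site, TATAAA was found in 66.7% of the members' promoters, against 10.7% of 35116 promoters of the table. CCAAT stood in 84.8% of the members' promoters, against 32.0% of all. CCAAT was present in all matched H1, H2A, H2B and H3 promoters and in 3 of 13 H4 promoters. The octamer ATTTGCAT stood in 14 of 18 H2B and 11 of 16 H2A promoters, and in 39.4% of members, against 1.63% of all promoters. AAACACA, part of the element known from H1 promoters, was found in all 6 H1 promoters, in no other member and in 4.82% of all promoters. Divergent neighbours share part of these windows, and HIST1H3D was matched to the same window as HIST1H2AD, which is thus counted under both H3 and H2A. The promoters are therefore not independent, and a match describes letters and not binding.

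Most clustered histone genes drew few counts or none. Reads were counted for 61 of the 71 in some library, and 10 had none anywhere (HIST1H1A, HIST1H2AA, HIST1H2AB, HIST1H2AD, HIST1H2AK, HIST1H2AM, HIST1H2BA, HIST1H2BM, HIST1H3D and HIST2H3PS2). A count of 0 over all libraries allows a level of up to 0.0139 CPM where reads can be assigned to the gene. For HIST1H2AD, HIST1H2AK, HIST1H2AM, HIST1H3D and HIST2H3PS2, 86.3% to 100% of the possible 50-base windows also occur in other genes, so a count of 0 sets no limit on their level. Another 8 genes had 1 to 3 counts in all. For HIST2H3A, HIST2H3C and HIST2H4A among them, 97.5% to 100% of the windows occur in other genes. HIST2H2AA3, HIST2H2AA4, HIST2H4B and HIST1H4K, also not tested, share 97.1% to 100% of theirs. The few counts of these genes set no limit on their level. The 23 genes that passed the filter on low counts held 95.5% of all histone counts: 3 of 6 H1, 4 of 17 H2A, 11 of 18 H2B, 1 of 15 H3 and 4 of 15 H4 genes. Of the 48 that were not tested, the highest total was 67 counts for HIST1H3H over the 12 libraries.

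A few genes made up the bulk of what was counted. Over all 12 libraries together, HIST1H2AC held 20.1% of the histone counts, HIST1H1C 15.2%, HIST3H2A 12.2%, HIST1H2BD 10.3% and HIST1H2BK 8.91%. The order differed between groups: HIST3H2A had the highest mean in siControl hypoxia (9.87 CPM, against 9.58 CPM for HIST1H2AC), HIST2H2BE was the third in siNOX4 normoxia (10.4 CPM), and HIST1H2BD came after HIST1H2AC in siControl normoxia (13.3 CPM). Per gene length, in the authors' FPKM, the order of mean levels over the 12 libraries began with HIST1H1C at 17.6 FPKM (lowest library 11.9, highest 32.5) and HIST1H2BK at 16.8 FPKM (8.68 to 37.6), whose ranges overlapped almost throughout. HIST3H2A at 9.78 FPKM, HIST1H2AC at 9.0 FPKM and HIST1H2BD at 8.74 FPKM came next and also overlapped. HIST2H2BE, the sixth, averaged 1.73 FPKM, and 11 members in all reached a mean of 1 FPKM. Of the possible 50-base windows of HIST1H2BK, 74.1% also occur in other genes, against 0% for HIST1H1C and 0.4% for HIST1H2AC. No source used here states how the authors counted reads that map to several places, so the level of HIST1H2BK is less certain.

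**Figure D1:**
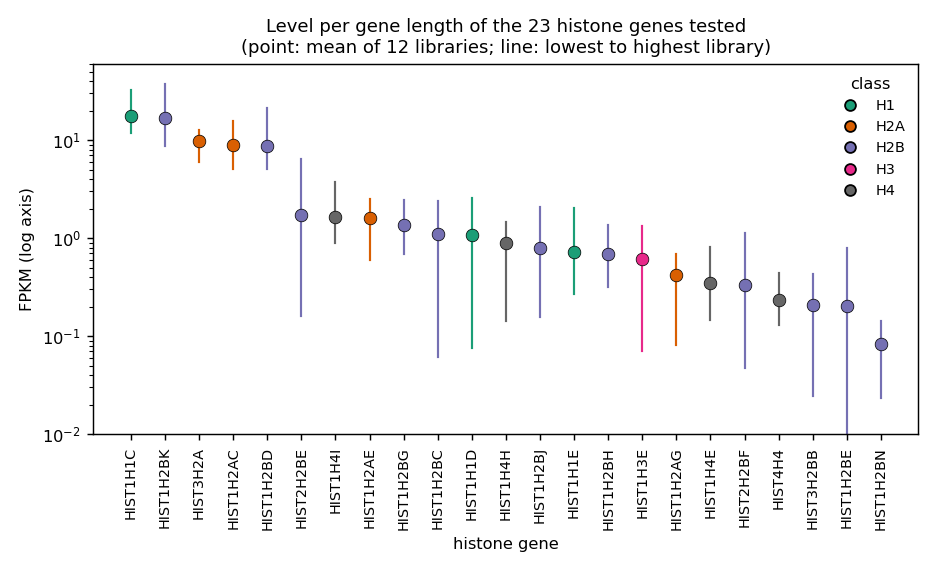
Mean level of the 23 tested histone genes in the authors' FPKM (log axis), with points for the mean of 12 libraries, lines from the lowest to the highest library and colours for the histone class. HIST1H1C, HIST1H2BK, HIST3H2A, HIST1H2AC and HIST1H2BD sit apart at 8.74 to 17.6 FPKM, and HIST1H2BE, listed at 0 in 1 library, has a line that runs off the lower edge.

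Summed over all 71 genes, histone mRNA was lower in hypoxia than in normoxia with either siRNA. With siNOX4 the sum was 51.9, 62.4 and 56.8 CPM in the hypoxia libraries, against 100.3, 103.9 and 76.5 CPM in the normoxia libraries. With siControl it was 61.1, 62.5 and 58.0 CPM in hypoxia, against 101.8, 73.1 and 84.1 CPM in normoxia. The hypoxia and normoxia libraries did not overlap with either siRNA, and replicate 2, the siControl normoxia library left when replicates 1 and 3 are set aside, was still above all siControl hypoxia libraries. CPM here are counts scaled to the library total after TMM normalisation of the library sizes. In bulk RNA, fewer cells that make histone mRNA and less of it per cell cannot be told apart.

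The histone classes differed in the direction of their sums. H1 genes summed to 8.90 ± 0.334 CPM in siNOX4 hypoxia (SD, n = 3) and 20.8 ± 2.91 CPM in siNOX4 normoxia, and H2B genes to 17.3 ± 2.30 CPM in siNOX4 hypoxia and 34.8 ± 8.97 CPM in siNOX4 normoxia. H2A genes summed to 21 ± 2.45 CPM in siNOX4 hypoxia and 32.1 ± 3.27 CPM in siNOX4 normoxia. The sums of the remaining core classes went the other way, with H3 genes at 3.02 ± 0.283 CPM in siNOX4 hypoxia and 1.51 ± 0.532 CPM in siNOX4 normoxia, and H4 genes at 6.76 ± 0.509 CPM in siNOX4 hypoxia and 4.36 ± 0.633 CPM in siNOX4 normoxia. Without HIST1H3E, the H3 sum was 0.905 ± 0.109 CPM in siNOX4 hypoxia and 1.08 ± 0.220 CPM in siNOX4 normoxia, and without HIST1H4H the H4 sum was 3.82 ± 0.475 CPM in siNOX4 hypoxia and 3.75 ± 0.395 CPM in siNOX4 normoxia, so the H3 and H4 differences lay in these 2 genes. Single genes weighed on the falling sums too. HIST1H2AC, of class H2A, averaged 9.20 CPM in siNOX4 hypoxia and 19.8 CPM in siNOX4 normoxia. HIST1H1C averaged 8.07 and 18.2 CPM in the same groups, and HIST2H2BE, of class H2B, 1.09 and 10.4 CPM. Sums of the falling classes without these genes were not taken. With all members, in none of these 5 classes did the siNOX4 hypoxia libraries overlap with the siNOX4 normoxia libraries. With siControl, H1 genes summed to 9.21 ± 0.401 CPM in hypoxia and 12.1 ± 0.948 CPM in normoxia. The siControl normoxia libraries spread widely for H4, at 10.1, 4.02 and 6.75 CPM, on both sides of the siControl hypoxia mean of 6.61 ± 0.487 CPM. Sums over members carry no test here, since the genes are not replicates.

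**Figure D2:**
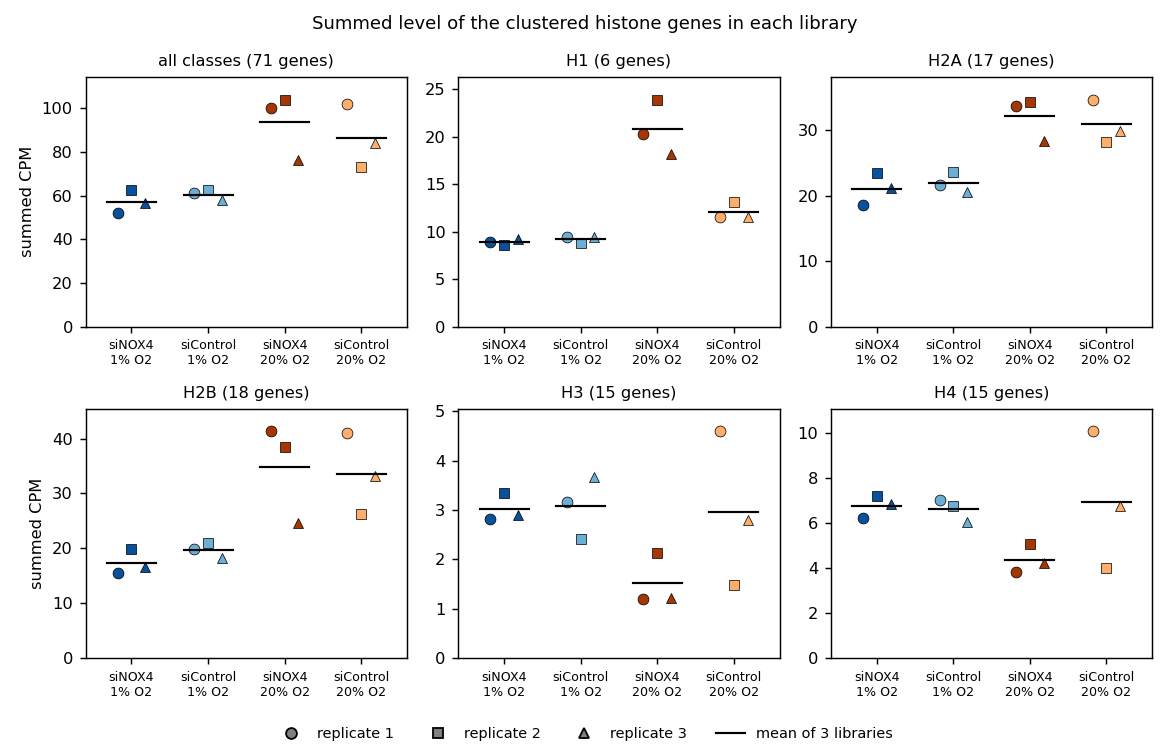
Summed CPM of all 71 clustered histone genes and of each class in the 12 libraries, with marker shapes for the replicate and black lines for the mean of 3 libraries. The H1, H2A and H2B sums were lower at 1% oxygen, whereas the H3 and H4 sums of the siNOX4 cells were higher, and siControl normoxia replicates 1 and 3 differ from replicate 2.

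With siNOX4, hypoxia lowered 9 of the 23 tested histone genes and raised 4. Over all 17277 genes tested, 27.8% were called lower and 28.8% higher in that comparison, against 39.1% and 17.4% of the histone genes, and the median log2 fold change was -0.80 for the histone genes and 0.03 for all genes. The 9 that fell are 3 H1 genes, 1 H2A gene and 5 H2B genes, and the 4 that rose come from classes H2A, H2B, H3 and H4. Genes entered the test by being over the filter level of 0.560 CPM in at least 3 of the 12 libraries. Of the 23, 8 were over it in all libraries of every group and 5 in all libraries of no group. HIST1H1D, HIST1H1E, HIST1H4E and HIST2H2BF were over it in all libraries of siNOX4 normoxia and of no other group. In these low-count genes, 15 of 23 had under 10 counts in some library, which is reflected in their standard errors. The groups share an estimate of the spread per gene, so the split within siControl normoxia enters these standard errors too. Without its replicates 1 and 3, HIST2H2BE kept its log2 fold change of -3.24 in siNOX4 cells, with an SE of 0.32 against 0.78. The SE of HIST1H1E went the other way, to 0.47 from 0.41.

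All 3 tested H1 genes, which code for linker histones that bind the DNA between nucleosomes, fell in siNOX4 cells. HIST1H1E was over the filter level in 4 libraries, among them all of siNOX4 normoxia. That group, where it was high, brought it into the test, so its fall is partly set by the filter. HIST1H1C (ENSG00000187837, chromosome 6, 26055787 to 26056428) had 7.74, 8.23 and 8.24 CPM in siNOX4 hypoxia, against 17.5, 20.9 and 16.3 CPM in siNOX4 normoxia. The libraries of the 2 oxygen levels were far apart, with a log2 fold change of -1.17 (SE 0.13, adjusted p = 1.2e-05, edgeR quasi-likelihood). HIST1H1E had 0.410, 0.257 and 0.254 CPM in siNOX4 hypoxia, against 1.52, 1.13 and 0.724 CPM in siNOX4 normoxia (log2 fold change -1.85, SE 0.41, adjusted p = 0.00208). HIST1H1D was low in 1 hypoxia library, with 0.615, 0.0514 and 0.712 CPM in siNOX4 hypoxia, against 1.33, 1.73 and 1.09 CPM in siNOX4 normoxia (log2 fold change -1.57, SE 0.55, adjusted p = 0.0265). Its call was lost without siNOX4 hypoxia replicate 2 (adjusted p = 0.0596), siNOX4 normoxia replicate 1 (0.0592) or siNOX4 normoxia replicate 2 (0.0935).

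Among the H2A genes, whose products pair with H2B in the nucleosome, 1 fell and 1 rose in siNOX4 cells. HIST1H2AC (ENSG00000180573, chromosome 6, 26124145 to 26139116), the gene with most histone counts, had 8.87, 10.1 and 8.59 CPM in siNOX4 hypoxia, against 20.7, 20.7 and 18.1 CPM in siNOX4 normoxia. Its log2 fold change was -1.11 (SE 0.16, adjusted p = 8.4e-05). HIST1H2AG (ENSG00000196787, chromosome 6, 27133042 to 27135291) had 1.44, 1.54 and 1.58 CPM in siNOX4 hypoxia, against 0.571, 0.399 and 0.302 CPM in siNOX4 normoxia. Every hypoxia library of this gene exceeded every normoxia library (log2 fold change 1.83, SE 0.47, adjusted p = 0.00532). HIST3H2A, of the HIST3 cluster, had 7.02, 10.8 and 9.10 CPM in siNOX4 hypoxia, against 9.33, 11.4 and 8.09 CPM in siNOX4 normoxia, with overlapping libraries and a log2 fold change of -0.10 (SE 0.23, adjusted p = 0.726).

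The H2B genes held the largest falls. HIST2H2BE (ENSG00000184678, chromosome 1, 149884459 to 149886652), an H2B gene known for polyadenylated mRNA in non-dividing cells, had 1.08, 0.772 and 1.42 CPM in siNOX4 hypoxia, against 14.0, 12 and 5.19 CPM in siNOX4 normoxia. All hypoxia libraries were below all normoxia libraries, and replicate 3 was the lowest of the normoxia libraries (log2 fold change -3.24, SE 0.78, adjusted p = 0.00371). HIST2H2BF, near it on chromosome 1, had 0.154, 0.360 and 0.559 CPM in siNOX4 hypoxia, against 3.62, 2.66 and 1.03 CPM in siNOX4 normoxia (log2 fold change -2.74, SE 0.74, adjusted p = 0.00711). HIST1H2BC had 0.0513, 0.823 and 0.407 CPM in siNOX4 hypoxia, against 1.59, 1.99 and 1.63 CPM in siNOX4 normoxia (log2 fold change -2.01, SE 0.51, adjusted p = 0.00491). HIST1H2BH and HIST1H2BG fell by 1.5 and 1.37 on the log2 scale (SE 0.34 and 0.35, adjusted p = 0.00244 and 0.00481). Of the exon bases of HIST2H2BF, 5.5% overlap FCGR1A, and 26.9% of its 50-base windows occur in other genes.

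HIST1H2BD and HIST1H2BK, the H2B genes with the highest mean CPM over all 12 libraries, did not pass the test in siNOX4 cells. HIST1H2BD had 4.56, 6.74 and 4.53 CPM in siNOX4 hypoxia, against 7.17, 7.98 and 5.37 CPM in siNOX4 normoxia (log2 fold change -0.37, SE 0.36, adjusted p = 0.392). HIST1H2BK had 4.31, 6.02 and 6.10 CPM in siNOX4 hypoxia, against 5.21, 4.06 and 4.17 CPM in siNOX4 normoxia (log2 fold change 0.29, SE 0.38, adjusted p = 0.535). Libraries of the 2 oxygen levels overlapped for both genes. HIST1H2BE, another H2B gene, was counted 29 times in the siNOX4 hypoxia libraries, against 3 times in the siNOX4 normoxia libraries, a count ratio of 9.09 (exact 95% interval 2.82 to 46.6, counting error only). Its edgeR adjusted p of 0.0491 passed the threshold narrowly and was over it under 13 alternatives (0.0502 to 0.176), though not with DESeq2. The log2 fold change was 2.84 (SE 1.14) with all libraries and 2.84 (SE 0.86) without siControl normoxia replicates 1 and 3. Of the exon bases of HIST1H2BE, 28.2% overlap an antisense gene, AL353759.1, that an unstranded library cannot separate from it.

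Among the H3 and H4 genes, 1 of each class rose in siNOX4 cells and none fell. HIST1H3E (ENSG00000274750, chromosome 6, 26224199 to 26227473), the only H3 gene tested, had 1.79, 2.47 and 2.09 CPM in siNOX4 hypoxia, against 0.191, 0.798 and 0.302 CPM in siNOX4 normoxia (log2 fold change 2.30, SE 0.60, adjusted p = 0.00608). HIST1H4H (ENSG00000158406, chromosome 6, 26277609 to 26285638) had 2.92, 3.19 and 2.70 CPM in siNOX4 hypoxia, against 0.381, 0.864 and 0.604 CPM in siNOX4 normoxia (log2 fold change 2.25, SE 0.55, adjusted p = 0.00400). For both genes the hypoxia libraries lay wholly above the normoxia libraries. HIST1H4I, which codes for the same core histone as HIST1H4H, had 1.44, 1.29 and 1.73 CPM in siNOX4 hypoxia, against 1.14, 1.40 and 1.51 CPM in siNOX4 normoxia (log2 fold change 0.14, SE 0.30, adjusted p = 0.717). HIST4H4, the H4 gene outside the large clusters, had 0.922, 0.823 and 0.509 CPM in siNOX4 hypoxia, against 0.381, 0.332 and 0.483 CPM in siNOX4 normoxia (log2 fold change 0.90, SE 0.48, adjusted p = 0.126).

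**Figure D3:**
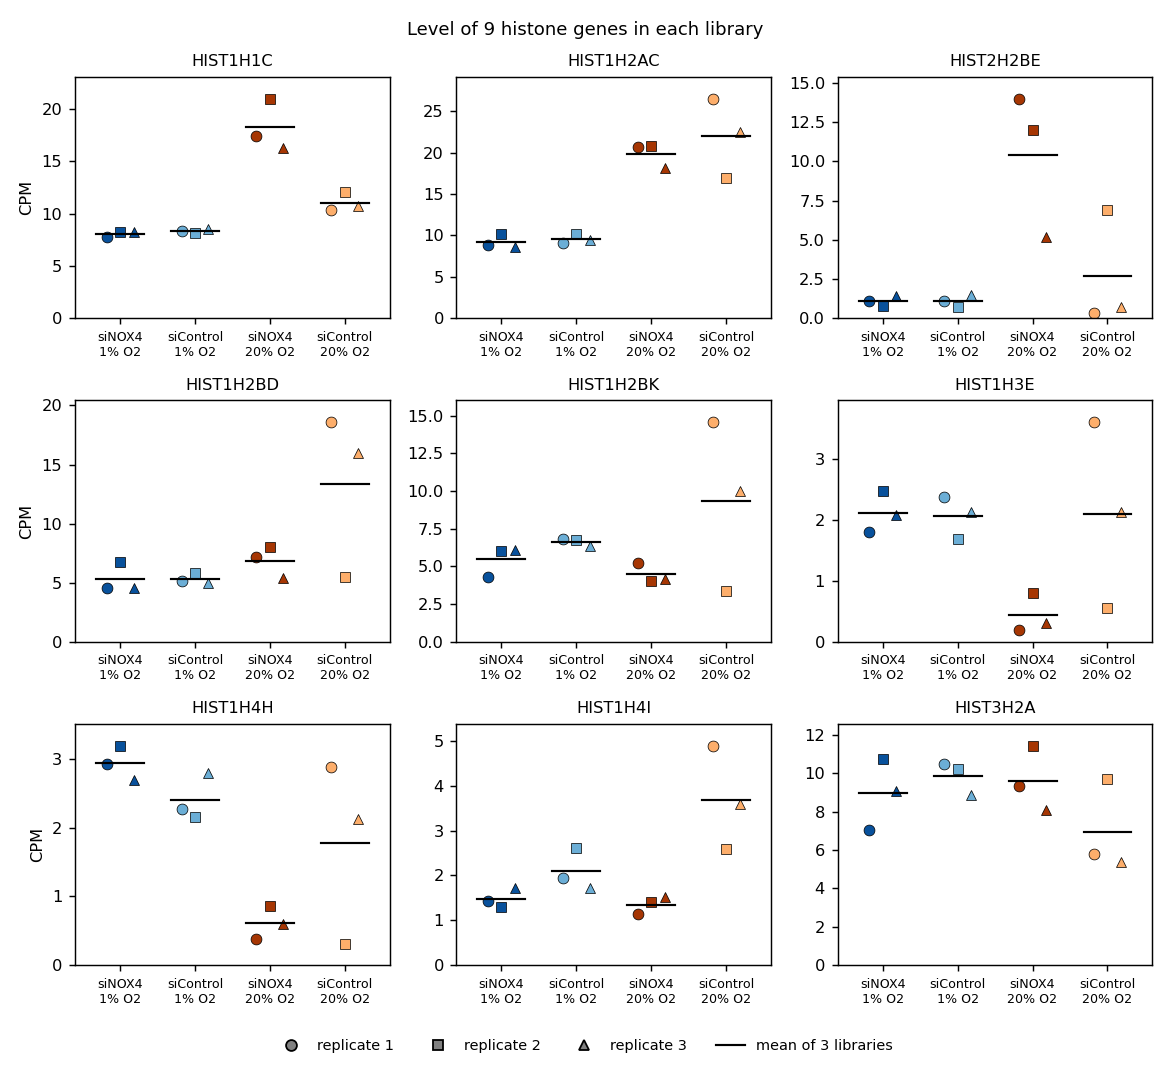
CPM of 9 histone genes in each of the 12 libraries (linear axes that start at 0), with marker shapes for the replicate and black lines for the mean of 3 libraries. HIST1H1C, HIST1H2AC and HIST2H2BE are lower and HIST1H3E and HIST1H4H higher at 1% oxygen in siNOX4 cells, and siControl normoxia replicate 2 sits near the siNOX4 normoxia libraries for HIST2H2BE, HIST1H2BD, HIST1H2BK, HIST1H3E and HIST1H4H.

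With siControl, hypoxia lowered 4 of the 23 tested histone genes, HIST1H1C, HIST1H2AC, HIST1H2BD and HIST1H4I, and raised none. Over all genes tested, 27.6% were called lower and 25.7% higher, against 17.4% and 0% of the histone genes, and the median log2 fold change was -0.41 for the histone genes and -0.01 for all genes (-0.24 and 0.03 without siControl normoxia replicates 1 and 3). No histone gene was called higher by edgeR or DESeq2, limma-voom called 1, upper-quartile scaling in edgeR called 2, and 2 had an unadjusted p under 0.05 in edgeR. In either direction DESeq2 called 54.5% of all genes and limma-voom 53.2%, and upper-quartile scaling called 5287 of all genes higher. The log2 fold changes of the 23 genes ran from -1.32 to 1.00. Without siControl normoxia replicates 1 and 3, 6 fell and 4 rose of 25 tested, with 26.8% of all genes called lower and 26.3% higher.

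HIST1H2AC had 9.05, 10.2 and 9.51 CPM in siControl hypoxia, against 26.5, 17 and 22.5 CPM in siControl normoxia. The oxygen levels did not overlap, with a log2 fold change of -1.20 (SE 0.15, adjusted p = 4.7e-05), and -0.82 (SE 0.15, adjusted p = 9.4e-05) without replicates 1 and 3. HIST1H1C had 8.32, 8.14 and 8.54 CPM in siControl hypoxia, against 10.4, 12 and 10.7 CPM in siControl normoxia. All its hypoxia libraries were again below all normoxia libraries (log2 fold change -0.41, SE 0.13, adjusted p = 0.0173, and -0.53, SE 0.17, adjusted p = 0.0104 without replicates 1 and 3). That call was lost under upper-quartile scaling (-0.29, adjusted p = 0.0829), with no filter on low counts (0.142), with the compared groups alone (0.0572), and without siControl hypoxia replicate 1 (0.0517) or replicate 2 (0.0595).

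The remaining calls of this comparison were lost without the replicates that stood apart. HIST1H2BD had 5.16, 5.83 and 5.0 CPM in siControl hypoxia, against 18.6, 5.44 and 16.0 CPM in siControl normoxia. Only the normoxia replicates 1 and 3 were high, and the log2 fold change of -1.32 (SE 0.35, adjusted p = 0.00677) became -0.03 (SE 0.26, adjusted p = 0.936) without them. HIST1H4I had 1.95, 2.61 and 1.73 CPM in siControl hypoxia, against 4.89, 2.60 and 3.59 CPM in siControl normoxia (log2 fold change -0.82, SE 0.27, adjusted p = 0.0213, and -0.31, SE 0.35, adjusted p = 0.470 without them). HIST1H2BK showed the same split, with 6.79, 6.76 and 6.33 CPM in siControl hypoxia, against 14.6, 3.34 and 10.0 CPM in siControl normoxia. It was not called with all libraries (log2 fold change -0.49, SE 0.36, adjusted p = 0.273) and rose without replicates 1 and 3 (0.99, SE 0.25, adjusted p = 0.00268). PECAM1 and PAX8 moved with these replicates. Their edgeR log2 fold changes in siControl hypoxia against normoxia were -3.15 (SE 0.62, adjusted p = 0.00104) and -1.58 (SE 0.31, adjusted p = 0.000985). The thyroid factors NKX2-1 and FOXE1 went the other way, at 0.91 (SE 0.33, adjusted p = 0.0316) and 1.46 (SE 0.16, adjusted p = 1.3e-05). Without replicates 1 and 3, PAX8, NKX2-1 and FOXE1 stood at -0.29, 0.06 and 1.09. The part of these genes in the result was not tested.

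Several genes that responded in siNOX4 cells passed the test in siControl cells when replicate 2 alone stood for normoxia. HIST2H2BE had 1.11, 0.717 and 1.46 CPM in siControl hypoxia, against 0.354, 6.92 and 0.730 CPM in siControl normoxia. The log2 fold change was -1.26 (SE 0.81, adjusted p = 0.207) with all libraries and -2.63 (SE 0.42, adjusted p = 2.0e-05) without replicates 1 and 3. HIST1H4H had 2.26, 2.15 and 2.79 CPM in siControl hypoxia, against 2.89, 0.309 and 2.13 CPM in siControl normoxia. Only replicate 2 was low among the normoxia libraries (log2 fold change 0.43, SE 0.48, adjusted p = 0.475, and 2.94, SE 0.54, adjusted p = 9.8e-05 without replicates 1 and 3). HIST1H3E had 2.37, 1.69 and 2.12 CPM in siControl hypoxia, against 3.59, 0.556 and 2.13 CPM in siControl normoxia (log2 fold change -0.03, SE 0.49, adjusted p = 0.966, and 1.88, SE 0.56, adjusted p = 0.00753 without replicates 1 and 3). HIST1H2AG went to 2.71 (SE 0.68, adjusted p = 0.00218), against 1.00 (SE 0.45, adjusted p = 0.0758) with all libraries.

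The siNOX4 and siControl responses to oxygen share no library, so their calls can be laid side by side. Throughout, siNOX4 calls come from the fit to all libraries, which tested 17277 genes. Where siControl calls leave out replicates 1 and 3, they come from a separate fit that tested 18624 genes. Shared counts and percentages then mix both fits. With all libraries, 2 of the 9 genes that fell with siNOX4 and of the 4 that fell with siControl were the same genes, HIST1H1C, whose siControl call was lost under those settings, and HIST1H2AC. Without siControl normoxia replicates 1 and 3, 6 genes were shared, which is 6 of 9 for siNOX4 and 6 of 6 for siControl (HIST1H1C, HIST1H2AC, HIST1H2BG, HIST1H2BH, HIST2H2BE and HIST2H2BF). Of the genes that rose, 3 of 4 for siNOX4 and 3 of 4 for siControl were then shared (HIST1H2AG, HIST1H3E and HIST1H4H). Over all genes, the same settings shared 83.3% of the siNOX4 calls and 80.4% of the siControl calls that were lower, and 79.7% and 80.8% of those that were higher. With all libraries, 71.4% of the siNOX4 calls and 72% of the siControl calls that were lower were shared over all genes. HIST1H1D, HIST1H1E and HIST1H2BC were called lower with siNOX4 and not with siControl, a difference that the interaction test did not call.

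**Figure D4:**
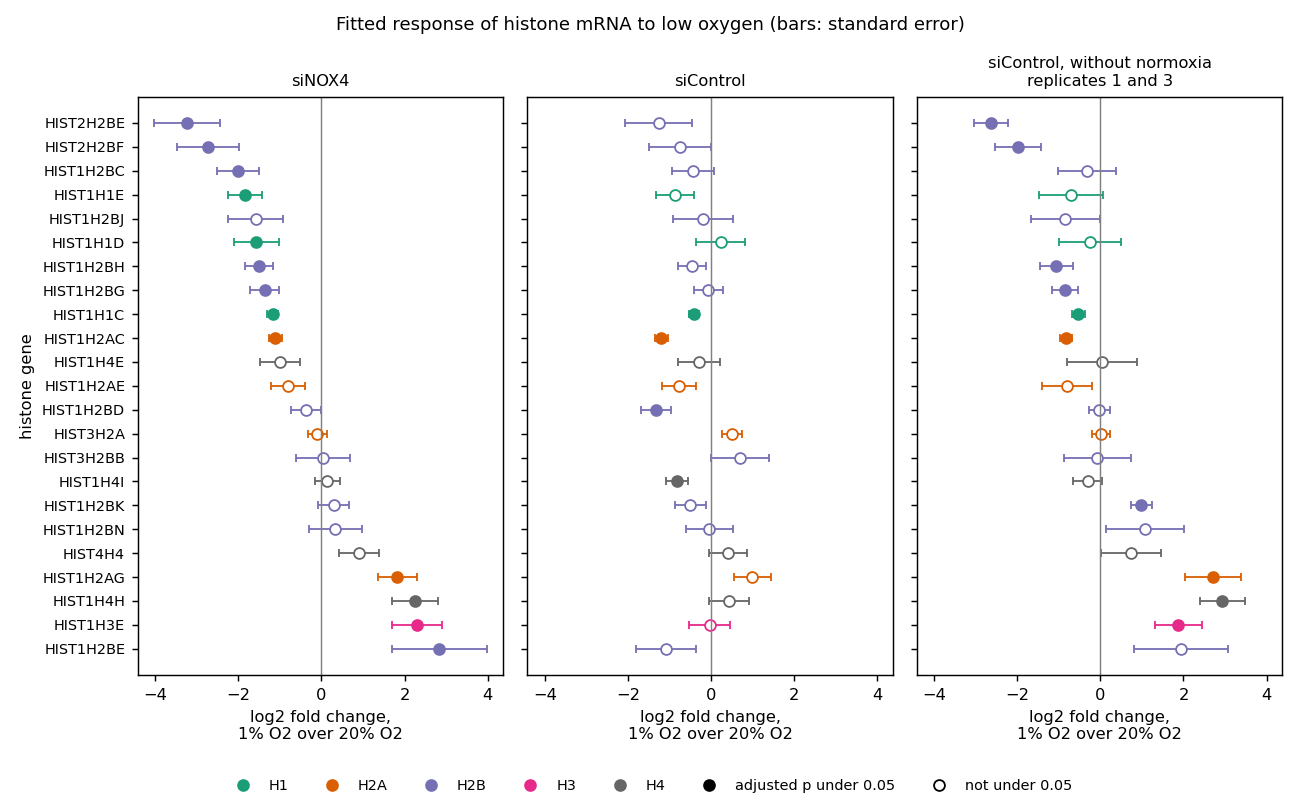
Fitted log2 fold change (1% over 20% oxygen) of the 23 tested histone genes with siNOX4, with siControl, and with siControl without normoxia replicates 1 and 3, with bars for the standard error, filled points for adjusted p under 0.05 and colours for the histone class. HIST2H2BE runs from -3.24 with siNOX4 to -1.26 with siControl and -2.63 without the 2 replicates, and HIST1H4H takes 2.25, 0.43 and 2.94 in the same panels.

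In normoxia, siNOX4 raised 1 histone gene and lowered 3. Over all genes tested, 3.97% were called higher and 11.0% lower, against 4.35% and 13% of the histone genes, and the median log2 fold change was 0.47 for the histone genes and -0.01 for all genes (0.42 and 0.01 without siControl normoxia replicates 1 and 3). HIST1H1C was higher, at 17.5, 20.9 and 16.3 CPM with siNOX4, against 10.4, 12 and 10.7 CPM with siControl (log2 fold change 0.72, SE 0.13, adjusted p = 0.0302). The libraries did not overlap for this gene, and replicate 2 was the highest siControl library. HIST1H4I was lower, at 1.14, 1.40 and 1.51 CPM with siNOX4, against 4.89, 2.60 and 3.59 CPM with siControl (log2 fold change -1.45, SE 0.29, adjusted p = 0.0302). HIST1H3E was lower at a log2 fold change of -2.29 (SE 0.61, adjusted p = 0.0346), where siControl replicate 2, at 0.556 CPM, lay within the siNOX4 range. HIST1H2BE had 3 counts with siNOX4 and 53 with siControl, a count ratio of 0.0560 (exact 95% interval 0.0112 to 0.173, counting error only). By library it had 1, 0 and 2 counts with siNOX4, against 35, 2 and 16 counts with siControl. Replicates 1 and 3 thus held most of its siControl counts, and replicate 2 was close to the siNOX4 libraries (edgeR adjusted p = 0.0347).

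The count of calls depended on the libraries and the tool. Without siControl normoxia replicate 2 it was 16, with 54.9% of all genes called. DESeq2 called 9 (3 higher and 6 lower), with 23.7% of all genes called, and limma-voom 0, with 0.0521% of all genes. None of these 4 was called without siControl normoxia replicates 1 and 3, where 0.0322% of all genes were called higher and 0.0161% lower. The log2 fold change was then 0.60 for HIST1H1C (SE 0.16, adjusted p = 0.451), -0.94 for HIST1H4I (SE 0.37, adjusted p = 0.731), -0.39 for HIST1H3E (SE 0.68, adjusted p = 0.956) and -0.90 for HIST1H2BE (SE 1.53, adjusted p = 0.956). The comparison shares the siControl normoxia libraries with the oxygen comparison in siControl cells. PAX8, a thyroid factor, moved with the same replicates. It had 550, 457 and 520 CPM in siNOX4 normoxia, against 1731, 533 and 1637 CPM in siControl normoxia. NKX2-1 had an estimate of the opposite sign and was not called (log2 fold change 0.84, SE 0.33, edgeR adjusted p = 0.0847). Of 3 thyroid factors tested, 1 was called lower with siNOX4 in normoxia and 0 higher. The endothelial list (PECAM1, CDH5 and VWF) summed to 2.39 to 3.86 CPM in siNOX4 normoxia and 2.72 to 30.8 CPM in siControl normoxia, with 1 of 3 markers tested and called lower with siNOX4. The leukocyte list (PTPRC, CD14 and CD3E) summed to 1.26 to 2.16 CPM in siNOX4 normoxia and 0.803 to 7.25 CPM in siControl normoxia, with PTPRC at 0.0876 CPM and CD3E at 0.00530 CPM over all libraries. Their part in the result was not tested.

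In hypoxia, siNOX4 changed no histone gene past the threshold. No gene of the whole table was called in either direction (0%), and no histone gene had an unadjusted p under 0.05, the smallest being 0.105 for HIST1H4I. The log2 fold changes of the 23 genes ran from -0.62 (HIST2H2BF) to 0.29 (HIST1H4H), and 21 were within 0.5 of no change. DESeq2 and limma-voom also called 0 histone genes, with 0.0232% and 0% of all genes called. HIST1H1C, for example, averaged 8.07 ± 0.286 CPM in siNOX4 hypoxia and 8.33 ± 0.201 CPM in siControl hypoxia (SD, n = 3 each). HIST1H2AC averaged 9.2 ± 0.821 CPM in siNOX4 hypoxia and 9.58 ± 0.569 CPM in siControl hypoxia.

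Whether the response to oxygen differed between the siRNAs was tested as an interaction, which called 0 histone genes and 0% of all genes with edgeR. An unadjusted p under 0.05 was found for 8 histone genes. DESeq2 called 1 histone gene and 0.434% of all genes, and limma-voom 0 and 0%. The largest estimate was 3.93 for HIST1H2BE (log2, SE 1.35, adjusted p = 0.204), which rests on 3 counts in siNOX4 normoxia, followed by 2.33 for HIST1H3E (SE 0.79, adjusted p = 0.204). Without siControl normoxia replicate 2 the interaction called 14 histone genes and 42.9% of all genes, and without replicates 1 and 3 it called 0 histone genes and 0.0107% of all genes. The estimates without replicates 1 and 3 were 0.90 for HIST1H2BE (SE 1.62) and 0.42 for HIST1H3E (SE 0.74).

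The divergent arrangement of H2A and H2B genes allows neighbours to be compared. Start sites on opposite strands and at most 1000 bases apart gave 12 pairs of histone genes, 11 of them an H2A and an H2B gene, with 218 to 330 bases between the start sites. In 4 of the 11 pairs both genes were tested. HIST1H2BC and HIST1H2AC both fell with hypoxia in siNOX4 cells, at log2 fold changes of -2.01 and -1.11. HIST3H2A and HIST3H2BB had estimates of -0.10 and 0.03, and neither was called. HIST1H2BG fell (-1.37), while its neighbour HIST1H2AE was not called (-0.80, SE 0.41, adjusted p = 0.110). HIST1H2BJ and HIST1H2AG, whose promoters are printed above, had estimates of opposite sign, with HIST1H2AG called higher (1.83) and HIST1H2BJ not called (-1.59, SE 0.67, adjusted p = 0.0599). HIST1H2BJ had 0.871, 0.411 and 0.153 CPM in siNOX4 hypoxia, against 1.97, 1.86 and 0.543 CPM in siNOX4 normoxia, with overlapping libraries. Without the siControl normoxia libraries that stood apart, its log2 fold change in siNOX4 cells was still -1.59, with an SE of 0.57. In the authors' own deposited comparison of these siNOX4 groups it was lower in hypoxia (adjusted p = 0.0307). Its missing call therefore depends on the fit and does not show that HIST1H2BJ was unchanged.

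Genes with long models, which include bases past the stem-loop, went both ways. Model length does not separate these forms fully, as HIST3H2A and HIST1H2BC, with shorter models, also ran 390 and 116 bases past it. For comparison, hypoxia raised 28.8% and lowered 27.8% of all genes with siNOX4, and raised 25.7% and lowered 27.6% with siControl. Of the 14 tested genes with models of at least 1000 bases, 5 fell and 4 rose with hypoxia in siNOX4 cells, at a median log2 fold change of 0.08. Of the 9 shorter ones, 4 fell and none rose, at a median of -1.17. With a limit of 2000 bases, 3 of 10 long models fell and 4 rose, at a median of 0.61, and 6 of 13 shorter ones fell and none rose. With siControl, 2 of the 14 and 2 of the 9 fell and none rose, and at 2000 bases none of 10 and 4 of 13 fell. Without siControl normoxia replicates 1 and 3, 5 of 14 long models fell and 3 rose, and 1 of 11 shorter ones fell and 1 rose. HIST2H2BE, with 1729 annotated bases past its stem-loop, fell, and HIST1H3E, with 1862, rose. The 10 histone genes listed as known for polyadenylated mRNA outside S phase (among them HIST1H1C, HIST1H2AC, HIST1H2BD, HIST1H2BK, HIST2H2BE, HIST3H2A and HIST4H4) had 5 lower and none higher with siNOX4, and 3 lower and none higher with siControl (4 lower and 1 higher without replicates 1 and 3).

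Genes of replication moved the other way from the histone sum. Beside these lists, 28.8% of all genes were called higher and 27.8% lower with siNOX4, and 25.7% and 27.6% with siControl. Of 19 S phase genes, all 19 rose with hypoxia in siNOX4 cells and 18 in siControl cells (19 without replicates 1 and 3), with medians of 1.42 and 1.49 on the log2 scale. They summed to 1231 to 1286 CPM in siNOX4 hypoxia, against 511 to 569 CPM in siNOX4 normoxia, and to 1323 to 1367 CPM in siControl hypoxia, against 560 to 625 CPM in siControl normoxia. PCNA, the sliding clamp of the DNA polymerases, rose by 1.42 (log2, SE 0.08, adjusted p = 1.6e-07) in siNOX4 cells and by 1.49 (SE 0.08, adjusted p = 1.3e-07) in siControl cells. Of 11 genes of G2 and M phase, 1 rose and 3 fell with siNOX4, and 6 rose and 2 fell with siControl (2 rose and 3 fell without replicates 1 and 3). Without siControl normoxia replicates 1 and 3, PCNA rose by 1.46 (SE 0.10, adjusted p = 3.2e-10) in siControl cells. The relation of these genes to the histone values was not tested.

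Genes that make and process histone mRNA were mixed. Among all genes, 28.8% were called higher and 27.8% lower with siNOX4, and 25.7% and 27.6% with siControl. The siNOX4 counts of this list were near these shares. In normoxia siNOX4 raised 3.97% and lowered 11.0% of all genes. Of 26 factors for histone transcription, 3′ end formation and decay, 8 rose and 7 fell with hypoxia in siNOX4 cells, and 5 rose and 10 fell in siControl cells (9 and 9 without replicates 1 and 3). SLBP, which binds the stem-loop, rose by 0.70 (log2, SE 0.09, adjusted p = 3.9e-05) in siControl cells and by 0.38 (SE 0.09, adjusted p = 0.00290) in siNOX4 cells. E2F1, a transcription factor of S phase entry, rose by 1.22 in siNOX4 cells (SE 0.13, adjusted p = 1.1e-05), and NCBP1, of the nuclear cap-binding complex, rose by 1.17 (SE 0.14, adjusted p = 3.3e-05). CCNE1, the cyclin that works with CDK2 on the histone activator NPAT, was lower by a log2 fold change of -0.91 (SE 0.12, adjusted p = 4.3e-05), and NCBP2 by -0.86 (SE 0.11, adjusted p = 5.6e-05). In siControl cells CCNE2 rose by 2.77 (SE 0.35, adjusted p = 4.1e-05), and POU2F1, the factor that binds the octamer, was lower at -0.81 (SE 0.13, adjusted p = 0.000279). UPF1, needed for histone mRNA decay and the most abundant factor not called, stood at 0.09 (SE 0.08, adjusted p = 0.348) with siNOX4. Without siControl normoxia replicates 1 and 3, the siControl log2 fold changes were 0.51 for SLBP, 2.64 for CCNE2 and -1.07 for POU2F1, all still called. With siNOX4 against siControl in normoxia 1 of the 26 was higher and 7 lower, and none either way without replicates 1 and 3.

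The 12 genes listed as replication-independent histone genes are known mainly for polyadenylated mRNA, though not all for that form alone. They were far more abundant than the clustered ones. Their sum was 2063 to 2245 CPM in siNOX4 hypoxia, against 2442 to 2742 CPM in siNOX4 normoxia. Of all genes, hypoxia raised 28.8% and lowered 27.8% with siNOX4, and raised 25.7% and lowered 27.6% with siControl. In normoxia siNOX4 raised 3.97% and lowered 11.0% of all genes. Of 11 tested, 2 rose and 1 fell with hypoxia in siNOX4 cells, and 7 rose and none fell in siControl cells (4 rose and 2 fell without replicates 1 and 3). H2AFX, the variant phosphorylated at DNA breaks, rose by 1.59 (SE 0.11, adjusted p = 3.8e-07) in siNOX4 cells and by 1.70 (SE 0.11, adjusted p = 2.8e-07) in siControl cells (1.78, SE 0.10, adjusted p = 1.6e-11 without replicates 1 and 3). H2AFY2, a macroH2A gene, rose by 1.00 (SE 0.20, adjusted p = 0.00122) in siNOX4 cells, and H2AFJ was lower at -0.65 (SE 0.15, adjusted p = 0.00248). In normoxia, siNOX4 raised 2 of the 11, H3F3A by 0.72 (SE 0.20, adjusted p = 0.0366) and H2AFJ by 0.48 (SE 0.15, adjusted p = 0.0459), and 0 without replicates 1 and 3.

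Among 21 chaperones and modifiers of new histones, 11 rose and 3 fell with hypoxia in siNOX4 cells, and 10 rose and 3 fell in siControl cells (12 and 4 without replicates 1 and 3). The shares of all genes were 28.8% higher and 27.8% lower with siNOX4, and 25.7% and 27.6% with siControl. For siNOX4 in normoxia they were 3.97% higher and 11.0% lower. CHAF1A, a subunit of the assembly factor CAF-1, rose by 1.89 (SE 0.12, adjusted p = 2.7e-07) with siNOX4 and by 1.68 (SE 0.12, adjusted p = 4.7e-07) with siControl. ASF1B, which hands H3 and H4 to CAF-1, rose by 1.53 (SE 0.13, adjusted p = 1.9e-06) with siNOX4 and by 2.00 (SE 0.13, adjusted p = 3.5e-07) with siControl. DAXX, the chaperone of H3.3, was lower at -0.83 (SE 0.14, adjusted p = 0.000352) with siNOX4 and -1.31 (SE 0.14, adjusted p = 1.3e-05) with siControl. Without siControl normoxia replicates 1 and 3, the siControl log2 fold changes were 1.80 for CHAF1A, 1.79 for ASF1B and -0.88 for DAXX, all still called. With siNOX4 against siControl in normoxia, 1 of the 21 was higher and 3 lower, and none either way without replicates 1 and 3.

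The authors' deposited table of their own comparisons held an adjusted p for 51 of the 71 histone genes in siNOX4 cells across oxygen levels, and its log2 fold changes run normoxia over hypoxia. For 11 histone genes the authors' deposited table had an adjusted p under 0.05 and lower values in hypoxia, and for 4 higher values. For siControl cells across oxygen levels the authors' deposited table had 52 genes with an adjusted p, of which 2 were past 0.05, both lower in hypoxia. For siNOX4 against siControl the authors' deposited table had 1 gene higher and 1 lower in normoxia, of 50, and none of 52 in hypoxia. The shares over all genes in the authors' comparisons were not taken, so these counts do not set histone genes apart from other genes.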

How the data were processed

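Total RNA of 12 BCPAP libraries was sequenced with an Illumina TruSeq RNA kit, per the labels' protocols. The authors deposited 1 table of 58735 genes with a raw read count and an FPKM value per library. It also holds the authors' own comparisons as group means (a scaled signal, not used here), log2 fold changes, p-values and adjusted p-values, per the file headers. Bowtie 0.12.2 and the mouse builds mm8 and mm9 are named, without a role, per the submitters' processing notes, while all 58735 rows match GENCODE 29 (GRCh38). The counter, strandedness and treatment of multi-mapped reads were not stated. For 12 gene names that a spreadsheet had turned into dates, names were restored by gene identifier.

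Counts were tested with edgeR 4.0.16 (quasi-likelihood, TMM, R 4.3.3), with 1 mean per group over all 12 libraries, after a filter of about 10 counts (0.560 CPM) in at least as many libraries as a group holds. Adjusted p is Benjamini-Hochberg over 17277 genes, and a call is an adjusted p under 0.05. DESeq2 1.42.0 and limma-voom 3.58.1, other scalings and filters, a replicate block and left-out libraries were alternatives, and the scripts were tested on simulated data. Replicates came from separate transfections according to the labels.

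Per-library values are given for the 3 members of each class with the highest mean CPM and for the 5 called members with the largest rise and the 5 with the largest fall in each comparison. Of other lists, counts are given with up to 4 examples, taken by smallest p in either direction and by highest CPM among those not called. SLBP with siNOX4, and members that bound a range, were added after values were seen. The members and lists were chosen with earlier results of these data known.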

Additional observations from a re-analysis of the deposited data

How the results depend on the processing

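With siNOX4, 13 histone genes were called across oxygen levels. The other settings gave 11 to 15, apart from 3 with a filter of 5 CPM in 3 libraries, which left 6 histone genes to test. Of all genes, DESeq2 called 57.7% in that comparison, limma-voom 56.4%, and the fit without siControl normoxia replicate 2 called 67.5%. With siControl the 4 calls became 2 when only the compared groups were fitted and 10 without siControl normoxia replicates 1 and 3. Leaving out single libraries gave 2 (without siControl hypoxia replicate 1) to 8 (without siControl normoxia replicate 2, with 63.3% of all genes called). The 4 calls for siNOX4 in normoxia became 12 with no filter on low counts, 9 with DESeq2, 1 with the filter of 5 CPM, and 0 with limma-voom, with the compared groups alone and without siControl normoxia replicates 1 and 3. Single left-out libraries gave 0 to 16 (16 without siControl normoxia replicate 2, with 54.9% of all genes called). In this comparison DESeq2 called 23.7% of all genes and limma-voom 0.0521%. The interaction's 0 became 6 with no filter and 1 with DESeq2 (0.434% of all genes). It became 0 to 14 with single libraries left out (42.9% of all genes without siControl normoxia replicate 2). Shares over all genes are not given for the remaining settings, and the cause of these shifts was not tested. No call of a histone gene with per-library values changed direction in these alternatives. HIST1H2BK, not called with siControl (log2 fold change -0.49), was called at 0.99 without siControl normoxia replicates 1 and 3. Long models called with siControl went to 0, against 2, at 2000 bases. siNOX4 in hypoxia gave 0 histone genes in all alternatives.

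Same-numbered replicates showed little shared deviation: 2 of 18 such pairs correlated over 0.1 (-0.058 to 0.150), against 1 of 36 pairs of different numbers. Both were pairs of siNOX4 and siControl normoxia, replicate 2 (0.150) and replicate 3 (0.14). The split within siControl normoxia weighs on these values, so pairing by number was neither shown nor excluded. A replicate block gave 13 calls with siNOX4 and 5 with siControl across oxygen levels, 5 for siNOX4 in normoxia, and 0 for siNOX4 in hypoxia and the interaction. Upper-quartile scaling moved the median log2 fold change of all genes to 0.11 in both oxygen comparisons. In siControl cells 2 histone genes were then higher and 3 lower, beside 5287 and 3961 of all genes. HIST1H1C was no longer called in these cells. Low counts limit most members, as 15 of 23 tested genes had under 10 counts in some library.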
